A study of Mus musculus with 18 samples.

Results

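Iron handling and ferroptosis were followed through 10 genes of 55487 counted in adipose tissue of mice lacking CSN8, a subunit of the COP9 signalosome, in adipocytes. The genes were chosen by symbol for their role, with earlier results of these data known. They cover iron uptake (Trf, Tfrc, Steap4), iron storage and its release (Fth1, Ftl1, Ncoa4) and iron export from the cell (Slc40a1). The others serve iron transport out of the phagosome (Slc11a1) and the control of ferroptosis (Acsl4, Aifm2). All 10 passed the filter on low counts in both tissues.

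RNA was sequenced from subcutaneous fat (sWAT, labelled SF) at 12 weeks of age and from brown fat (BAT) at 4 weeks of age. Each tissue was taken from male mice labelled WT, the Ctrl group, and from male mice labelled Csn8A KO, here called Csn8AKO, with 4 libraries per group in sWAT and 5 per group in BAT. By the study's methods both groups carried the floxed Csn8 allele, were littermates on chow and were fasted before tissue was taken, and only Csn8AKO mice carried the Cre driven by the adiponectin promoter. That Cre acts in adipocytes, and each library came from 1 mouse and held the whole tissue, with the macrophages, vessels, progenitor cells and blood that the deletion was not aimed at. Tissue and age cannot be told apart in any comparison of sWAT with BAT.

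Iron circulates bound to transferrin (Trf), enters cells when transferrin binds its receptor (Tfrc), and is reduced by STEAP enzymes such as Steap4 before it reaches the cytosol. Ferritin, a shell of heavy (Fth1) and light (Ftl1) chains, stores it, Ncoa4 carries ferritin to the lysosome for release, ferroportin (Slc40a1) exports iron from the cell, and Slc11a1 moves it out of the phagosome of macrophages. When iron is scarce, iron regulatory proteins (Aco1 and Ireb2) bind hairpins called iron responsive elements, which blocks translation of ferritin and ferroportin mRNA and stabilizes Tfrc mRNA. Ferroptosis is a form of cell death driven by iron and lipid peroxides. Acsl4 loads polyunsaturated fatty acids into membranes and favors it, while Aifm2 (FSP1) and Gpx4 oppose it.

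The hairpins are shown because 4 of the members carry them. Binding in the 5′ UTR controls translation, which an RNA count does not measure, whereas binding in the 3′ UTR of Tfrc stabilizes the mRNA. The transcripts of GENCODE M21 (GRCm38) were searched on the transcript's strand for the letters CNNNNNCAGTGN followed by 5 bases that pair with the 5 before the loop (G-U pairs allowed). Each is printed 5′ to 3′ in DNA letters, with 6 bases on either side and the 6 bases of the loop in capitals.
Fth1, 5′ UTR: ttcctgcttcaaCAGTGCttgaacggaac
Ftl1, 5′ UTR: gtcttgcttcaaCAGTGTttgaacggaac
Slc40a1, 5′ UTR: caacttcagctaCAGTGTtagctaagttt
Tfrc, 3′ UTR, the first: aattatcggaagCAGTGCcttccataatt
Tfrc, 3′ UTR, the second: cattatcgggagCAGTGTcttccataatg
Tfrc, 3′ UTR, the third: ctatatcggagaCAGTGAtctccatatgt
Tfrc, 3′ UTR, the fourth: aattatcgggaaCAGTGTttcccataatt

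The Fth1 hairpin lies at chr19:9982732-9982760 on the plus strand, that of Ftl1 at chr7:45459779-45459807 on the minus strand, and that of Slc40a1 at chr1:45925465-45925493 on the minus strand. The 4 matches of Tfrc lie at chr16:32631219-32631247, chr16:32631598-32631626, chr16:32631663-32631691 and chr16:32631710-32631738 on the plus strand. The other 6 members and the wider iron and ferroptosis genes had no match to these letters in an annotated UTR. The search misses elements with other letters or an unpaired base in the stem. A gene without a match may therefore still carry an element, and Tfrc may carry more than those printed. Among 21901 coding genes searched, 31 (0.142%) had a match in a 5′ UTR and 129 (0.589%) in a 3′ UTR. A match is a description of the sequence and not a measurement of binding.

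The libraries held between 15835721 and 66719937 counted reads. Brown fat libraries carried Ucp1, the uncoupling protein of brown fat, at 1568 to 5243 CPM (read counts scaled to library size with TMM factors, a scaling that evens out library composition), against at most 6.89 CPM in sWAT. Cops8, the gene of CSN8, had a log2 fold change of -0.30 in BAT (adjusted p = 0.0211) and -0.12 in sWAT (adjusted p = 0.623). By the study's methods the deletion takes out only some exons, while this count covers the whole gene and all cells of the tissue. The paper reports loss of CSN8 protein in sWAT and BAT by western blot. Fewer cells of a type and less RNA per cell cannot be told apart in these bulk samples. In sWAT, T cell markers were high in Ctrl 1 and Csn8AKO 2 (282 and 367 CPM summed over 8 genes, against at most 32.3 in the other sWAT libraries), and ribosomal RNA took up to 47.8% of the reads of a Csn8AKO library. In BAT, Csn8AKO 1 and 5 carried skeletal muscle markers (121 and 220.0 CPM summed over 8 genes, against at most 3.68 in the other BAT libraries).

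The Ctrl depots differed widely in these genes. In sWAT of Ctrl mice, Trf had the highest level per length, 528 ± 67.1 CPM per kilobase (mean ± SD, n = 4, TMM factors of all 18 libraries), followed by Fth1 at 244 ± 19.9, Steap4 at 159 ± 10.7, Ftl1 at 106 ± 14.0 and Aifm2 at 44.7 ± 9.27. Below these came Ncoa4 at 8.32 ± 1.17, Slc11a1 at 6.10 ± 0.707, Acsl4 at 5.81 ± 0.339, Tfrc at 4.04 ± 0.731 and Slc40a1 at 1.28 ± 0.330. Of neighbors in that order, Slc11a1 and Acsl4 alone had overlapping libraries.

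In BAT of Ctrl mice the order changed, with Fth1 first at 339.8 ± 78.3 CPM per kilobase (n = 5), then Aifm2 at 111 ± 6.51 and Ftl1 at 60.8 ± 6.42. Steap4 (47.7 ± 11.2) overlapped with Ftl1 above it and with Tfrc (32.6 ± 18.4) below it. Ncoa4 (9.61 ± 1.08), Trf (8.40 ± 3.09) and Acsl4 (5.65 ± 0.410) also overlapped each with the next, and Slc40a1 (2.77 ± 0.914) and Slc11a1 (1.05 ± 0.127) stood lowest. Transferrin stood first in sWAT and in place 7 in BAT, and its receptor stood in place 9 in sWAT and in place 5 in BAT.

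Between the Ctrl depots 8 of 10 members passed an adjusted p of 0.05 in edgeR's quasi-likelihood test, beside 51.5% of the 22509 genes tested. In log2 differences, BAT minus sWAT, BAT had more Tfrc (log2 fold change 3.01, SE 0.44, adjusted p = 2.65e-05), Aifm2 (1.30, adjusted p = 1.27e-05), Slc40a1 (1.11, adjusted p = 0.000737) and Fth1 (0.48, adjusted p = 0.0415). It had less Trf (log2 fold change -5.98, SE 0.33, adjusted p = 4.19e-11), Slc11a1 (-2.53, adjusted p = 3.52e-10), Steap4 (-1.73, adjusted p = 1.97e-06) and Ftl1 (-0.80, adjusted p = 6.01e-05). Ncoa4 and Acsl4 did not pass, with 95% intervals of the log2 difference of -0.08 to 0.49 and -0.26 to 0.18. The call of Fth1 was the weakest. It was lost without any 1 of 8 libraries (sWAT Ctrl 1, 3 and 4, sWAT Csn8AKO 1, BAT Ctrl 1 and 2, BAT Csn8AKO 3 and 4, adjusted p = 0.0504 to 0.139), with RLE size factors (0.0599) and with library size alone (0.401). The 14 macrophage markers used below were all called lower in BAT as well (median log2 difference -3.17). The part of cell makeup in the depot differences of the members, Slc11a1 among them, was not tested.

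In sWAT, loss of CSN8 in adipocytes was accompanied by a rise of Slc11a1, the phagosomal iron transporter, and by a fall of Steap4, the metalloreductase. These were 2 of 10 members called at an adjusted p of 0.05, beside 5.31% of the 18843 genes tested, with 1 higher beside 2.30% and 1 lower beside 3.00%. Slc11a1 alone was also past 1 on the log2 scale in either direction, beside 3.31% of the genes tested. The groups did not overlap for the same 2 of 10 members, beside 14.0% of the genes tested. The median log2 fold change was 0.09 over the members and 0.03 over all genes tested. A bare value in parentheses before an adjusted p is a log2 fold change of Csn8AKO over Ctrl. The receptor, ferritin chains, ferroportin and the ferroptosis genes did not pass the test.

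**Figure D1:**
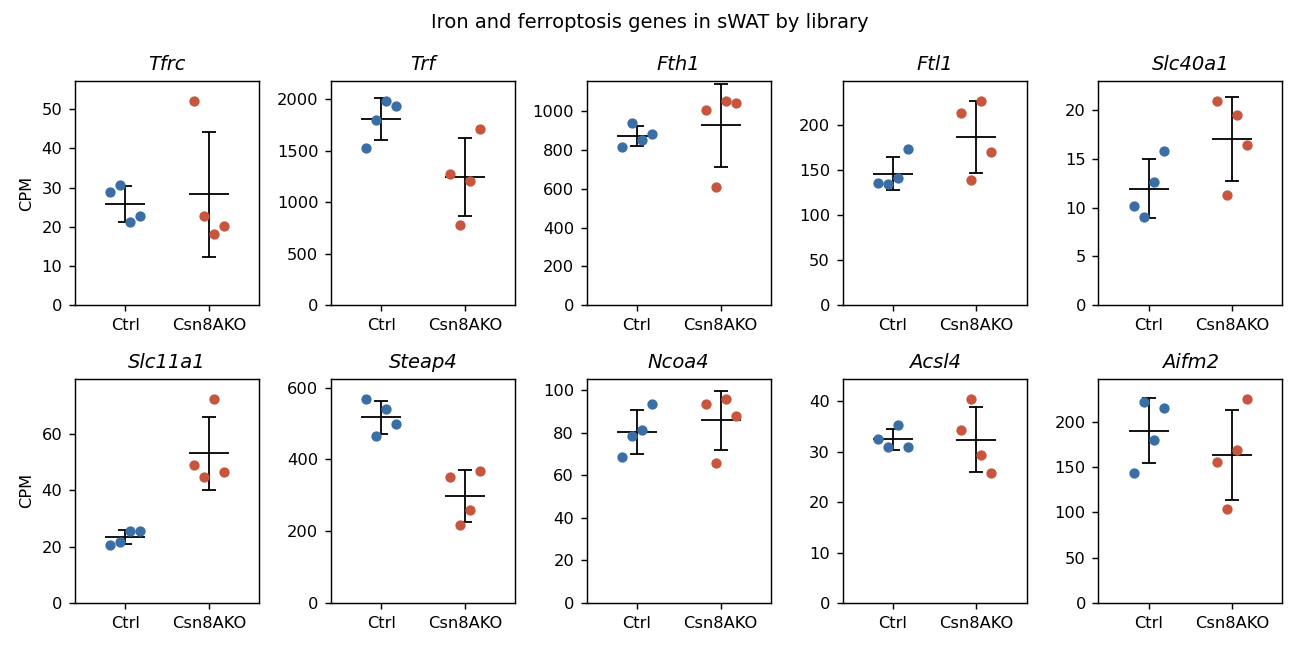
Level of each of the 10 genes in sWAT, in CPM with TMM factors on a linear axis that starts at 0, for 4 Ctrl (blue) and 4 Csn8AKO (red) libraries. Points are libraries, and bars give the mean ± SD. Slc11a1 lies higher and Steap4 lower in every Csn8AKO library than in any Ctrl library, while the other 8 genes overlap.

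Slc11a1 (also called Nramp1), a gene of macrophages and neutrophils (chr1:74375195-74386062, plus strand), read 20.7, 21.7, 25.4 and 25.5 CPM in sWAT of Ctrl mice and 49.1, 44.7, 72.5 and 46.6 CPM in Csn8AKO mice. Each Csn8AKO library lay above every Ctrl library, and Csn8AKO 3 was the highest. The mean went from 23.3 ± 2.49 CPM (SD, n = 4) to 53.2 ± 13.0 CPM (log2 fold change 1.19, SE 0.17, adjusted p = 0.00593 by edgeR's quasi-likelihood test). The call held with each library left out (adjusted p at most 0.0267) and was lost when libraries were scaled by their size alone (log2 fold change 1.09, adjusted p = 0.0915). Without the libraries rich in T cell markers it gave an adjusted p of 0.00351, and without Csn8AKO 3 and 4, those richest in ribosomal RNA, one of 0.0352.

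Steap4, an adipocyte metalloreductase that reduces iron and copper (chr5:7960457-7982213, plus strand), read 568, 465, 539 and 498 CPM in Ctrl and 352, 217, 258 and 367 CPM in Csn8AKO mice. All Csn8AKO libraries were below all Ctrl libraries. The mean fell from 518 ± 45.4 CPM to 298 ± 72.8 CPM (SD, n = 4 each, log2 fold change -0.79, SE 0.20, adjusted p = 0.0467). This call was close to the threshold. It was lost without any 1 of 6 libraries (Ctrl 1, 2, 3 and 4, Csn8AKO 1 and 3, adjusted p = 0.0705 to 0.151), without Csn8AKO 3 and 4 (0.131), with RLE factors (0.0513) and with library size alone (0.136). The log2 fold change stayed between -0.93 and -0.62 over all settings tried.

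Trf read 1523, 1802, 1979 and 1933 CPM in Ctrl and 1272, 781, 1203 and 1708 CPM in Csn8AKO mice. Of the Csn8AKO libraries, 3 were below all Ctrl libraries, but Csn8AKO 4 lay within the Ctrl range, and the change did not pass (log2 fold change -0.54, SE 0.25, adjusted p = 0.256). Tfrc, its receptor, stood at 21.1 to 30.7 CPM in Ctrl libraries and 18.2 to 51.9 CPM in Csn8AKO libraries (0.13, adjusted p = 0.872). Its Csn8AKO mean rested on Csn8AKO 1, the highest of all 8, since the other 3 Csn8AKO libraries read at most 22.6 CPM, and without it the log2 fold change was -0.35.

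Of the ferritin chains, Fth1 ranged over 814 to 940.5 CPM in Ctrl and 610.5 to 1051 CPM in Csn8AKO libraries (0.09, adjusted p = 0.864), and Ftl1 over 135 to 173 and 139 to 226 CPM (0.36, adjusted p = 0.298). Ncoa4, the ferritin receptor, was at 68.7 to 93.5 CPM in Ctrl and 65.6 to 95.8 CPM in Csn8AKO libraries (0.09, adjusted p = 0.799). Ferroportin (Slc40a1) was low, 9.06 to 15.8 against 11.3 to 20.9 CPM, and its difference of 0.51 did not pass (adjusted p = 0.258). None of these 4 genes separated the groups.

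Neither ferroptosis gene passed in sWAT. Acsl4 had a log2 fold change of 0.00 with a 95% interval of -0.34 to 0.34, and Aifm2 one of -0.22 with an interval of -0.73 to 0.30. The libraries of both genes overlapped between the groups. Aifm2 overlaps H2afy2 on the opposite strand, and since the strand setting of the counting was not stated, reads from that gene cannot be told apart.

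In BAT, genes of iron uptake, storage and export were among those that changed. Trf, Ftl1, Slc40a1 and Slc11a1 rose and Tfrc fell, whereas Fth1, Steap4, Ncoa4, Acsl4 and Aifm2 did not pass. These are 5 of 10 members called, beside 31.9% of the 22345 genes tested, with 4 higher beside 16.0% and 1 lower beside 15.8%. Of the called members, 4 of 10 (Trf, Slc40a1, Slc11a1 and Tfrc) also moved by 1 or more on the log2 scale, beside 11.0% of the genes tested. The groups did not overlap for 4 of 10 members, beside 21.0% of the genes tested. The median log2 fold change was 0.18 over the members and 0.01 over all genes tested.

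**Figure D2:**
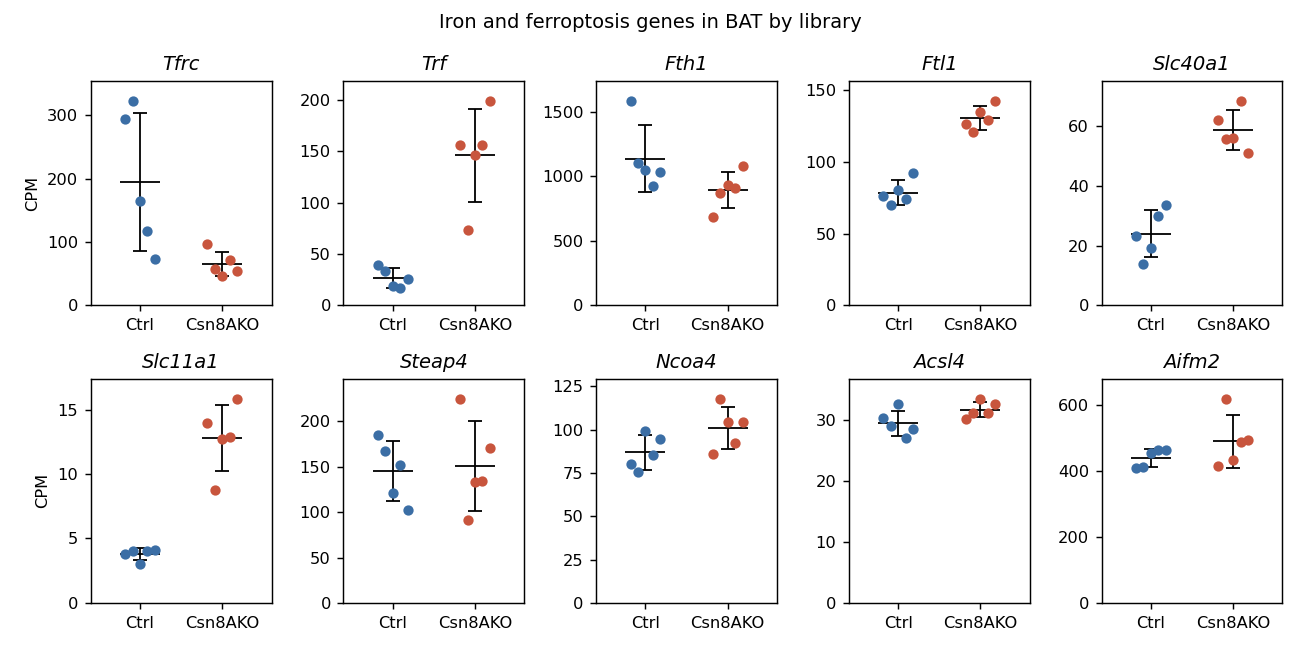
Level of each of the 10 genes in BAT, in CPM with TMM factors on a linear axis that starts at 0, for 5 Ctrl (blue) and 5 Csn8AKO (red) libraries. Points are libraries, and bars give the mean ± SD. Trf, Ftl1, Slc40a1 and Slc11a1 separate the groups, and the Ctrl libraries of Tfrc spread from 73.7 to 322 CPM.

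Tfrc, the transferrin receptor (chr16:32608920-32632794, plus strand), read 294, 322, 165, 117 and 73.7 CPM in BAT of Ctrl mice and 96.5, 56.6, 46.2, 71.3 and 54.8 CPM in Csn8AKO mice. The Ctrl libraries spread over a wide range, and Ctrl 5 lay below Csn8AKO 1, so the groups overlapped. The mean was 194 ± 109 CPM in Ctrl and 65.1 ± 19.7 CPM in Csn8AKO mice (SD, n = 5 each), a 2.98-fold lower level by the fit (log2 fold change -1.57, SE 0.42, adjusted p = 0.0193). Without Csn8AKO 5 the adjusted p was 0.0508, and without both libraries that held muscle markers it was 0.0593, with a log2 fold change of -1.74.

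Trf, its ligand (chr9:103204001-103230444, minus strand), read 39.7, 33.8, 18.9, 16.6 and 25.5 CPM in Ctrl and 156, 73.6, 147, 156 and 199 CPM in Csn8AKO mice. Every Csn8AKO library was above every Ctrl library, and Csn8AKO 2 was the lowest of its group. The fit gave a 5.45-fold higher level (log2 fold change 2.45, SE 0.32, adjusted p = 0.000328), the largest rise among the members. Per length, Trf in Csn8AKO brown fat reached 44.9 ± 13.7 CPM per kilobase, still below the 528 ± 67.1 of sWAT in Ctrl mice. The call held with each library left out (adjusted p at most 0.00142).

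Steap4 did not separate the groups in BAT, with 102 to 184 CPM in Ctrl and 91.2 to 224 CPM in Csn8AKO libraries (0.05, adjusted p = 0.886). Its highest library, Csn8AKO 1, was 1 of those with muscle markers, and the log2 fold change went from 0.05 to -0.28 without that pair.

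Of the ferritin chains, only the light chain passed the test in BAT. Ftl1, the light chain (chr7:45457944-45459884, minus strand), read 76.4, 70.1, 80.2, 74.4 and 92.3 CPM in Ctrl and 126, 121, 135, 129 and 142 CPM in Csn8AKO mice. The groups were well separated and the spread within each was small (1.66-fold higher, log2 fold change 0.73, SE 0.09, adjusted p = 2.63e-05).

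Fth1, the heavy chain, which carries the ferroxidase site (chr19:9980598-9985098, plus strand), read 1580.1, 1104, 1047, 922 and 1033 CPM in Ctrl and 687, 873, 935, 907 and 1078 CPM in Csn8AKO mice. The groups overlapped, Ctrl 1 stood far above its group, and the change did not pass (log2 fold change -0.34, SE 0.15, adjusted p = 0.103). For each 100 reads of Fth1, Ctrl libraries held 4.84 to 8.93 reads of Ftl1 and Csn8AKO libraries 13.2 to 18.4, so that the ratio of light to heavy chain reads did not overlap between the groups. In sWAT this ratio was 14.4 to 19.6 in Ctrl and 16.3 to 22.8 in Csn8AKO libraries, with overlap. Reads on the 5 annotated copies of the ferritin genes numbered at most 282 for any 1 copy and library (Ftl1-ps1, annotated as protein coding) and at most 227 on a processed pseudogene, and adding those of the copies to the parent genes left the calls of both chains as they were.

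Ncoa4, which targets ferritin for breakdown, was at 75.5 to 99.3 CPM in Ctrl and 85.7 to 118 CPM in Csn8AKO libraries and did not pass (log2 fold change 0.22, SE 0.10, adjusted p = 0.121). It passed without Csn8AKO 1 (adjusted p = 0.049) and with library size alone (0.0281).

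Slc40a1, ferroportin (chr1:45908068-45926523, minus strand), read 23.2, 13.9, 19.3, 30.0 and 33.8 CPM in Ctrl and 62.2, 55.9, 56.2, 68.4 and 51.0 CPM in Csn8AKO mice. All 5 Csn8AKO libraries lay above all 5 Ctrl libraries. The fit gave a 2.44-fold higher level (log2 fold change 1.29, SE 0.21, adjusted p = 0.000712).

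Slc11a1 was the lowest member of Ctrl brown fat and read 3.77, 4.03, 2.98, 4.00 and 4.07 CPM there, against 13.9, 8.79, 12.7, 12.8 and 15.8 CPM in Csn8AKO mice. Again no Csn8AKO library reached down to the Ctrl range. It was 3.40-fold higher (log2 fold change 1.77, SE 0.16, adjusted p = 2.96e-06), the member with the smallest adjusted p in either tissue.

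The ferroptosis genes did not pass in BAT either. Acsl4 ranged over 27.0 to 32.6 CPM in Ctrl and 30.2 to 33.4 CPM in Csn8AKO libraries, and its log2 fold change of 0.11 had a 95% interval of -0.05 to 0.26 (adjusted p = 0.306). Aifm2 ranged over 410.0 to 463 and 414 to 617 CPM, with a log2 fold change of 0.15 and an interval of -0.08 to 0.39 (adjusted p = 0.326).

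The changes were set against each other in 1 fit of all 18 libraries, as the change in BAT minus the change in sWAT. Only Trf of the 10 members passed, beside 2.36% of 22509 genes, with a difference of 2.97 on the log2 scale (SE 0.40, adjusted p = 0.000493), and it rose in BAT and had a negative estimate in sWAT. The difference for Tfrc was -1.73 (adjusted p = 0.14) and passed with DESeq2 (0.0282). Steap4, called in sWAT alone, differed by 0.82 (95% interval 0.17 to 1.48, adjusted p = 0.194). Slc40a1 (0.76, adjusted p = 0.271) and Slc11a1 (0.56, adjusted p = 0.244) did not pass, so a larger rise in BAT was not shown for either. The others did not pass, among them Acsl4 with the narrowest interval (-0.21 to 0.41).

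**Figure D3:**
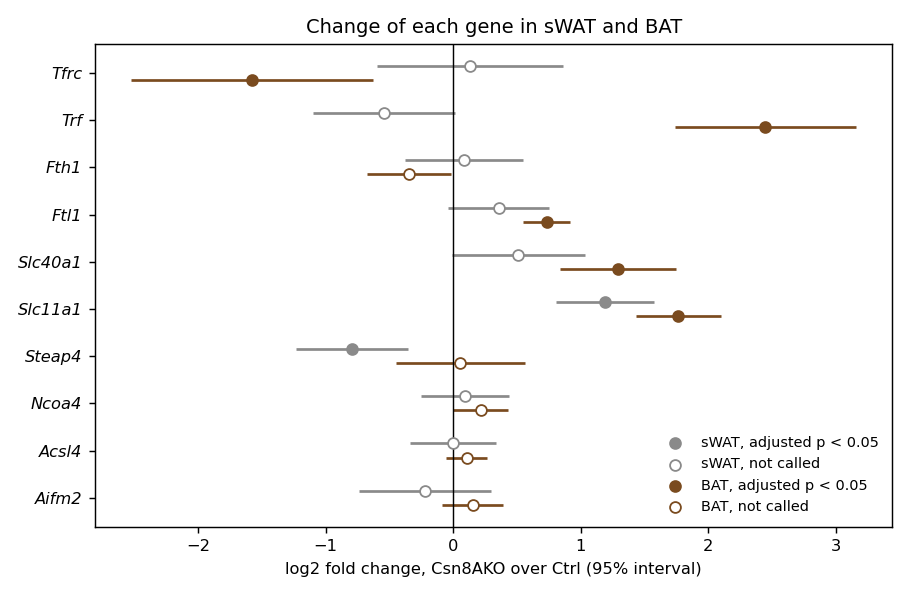
Log2 fold change of Csn8AKO over Ctrl for each of the 10 genes in sWAT (grey, 4 against 4 libraries) and BAT (brown, 5 against 5), with 95% intervals from the edgeR fit. Filled points passed an adjusted p of 0.05, and open points did not. Trf lies at -0.54 in sWAT and 2.45 in BAT, and Slc11a1 is filled in both tissues.

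Markers of other cells were followed in the same libraries. The summed level of 14 macrophage markers was 1245 to 1649.8 CPM in Ctrl and 2099 to 3513 CPM in Csn8AKO sWAT (8 of 14 called, all higher), and 128 to 176 and 446 to 631 CPM in BAT (12 of 13 tested called, all higher). The exact permutation test gave p = 0.0286 in sWAT and 0.00794 in BAT, the smallest that 4 against 4 and 5 against 5 libraries allow, and adjusted over 14 library measures these were 0.133 and 0.0278. Of the defining markers, Cd5l was at or near 0 in BAT (at most 0.355 CPM).

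Neutrophil markers were at far lower levels. Their sum over 10 genes was 8.10 to 9.96 CPM in Ctrl and 14.3 to 29.5 CPM in Csn8AKO sWAT, without overlap (exact permutation p = 0.0286, adjusted 0.133), and 2.23 to 3.99 and 3.11 to 5.80 CPM in BAT (exact permutation p = 0.0794). Of the 4 neutrophil markers tested in sWAT and the 3 tested in BAT, Csf3r alone was called in each, and it was higher (1.18, adjusted p = 0.0198 in sWAT and 1.14, adjusted p = 0.00214 in BAT). Elane alone had a negative estimate, in both tissues (-0.60, adjusted p = 0.449 in sWAT and -1.07, adjusted p = 0.0854 in BAT). The part of neutrophils in the rise of Slc11a1 was not tested.

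The members linked to macrophages were set against that sum. For each 100 CPM of macrophage markers, Slc11a1 took 1.55 to 1.74 CPM in Ctrl and 1.40 to 2.13 CPM in Csn8AKO sWAT, and 2.23 to 2.91 and 1.97 to 2.57 CPM in BAT. The groups overlapped in both tissues. Slc40a1 took 9.15 to 24.1 CPM in Ctrl and 8.09 to 13.5 CPM in Csn8AKO BAT, with overlap, and 0.728 to 0.960 against 0.537 to 0.691 CPM in sWAT, without overlap and lower in Csn8AKO mice. These ratios were computed after the values of the genes had been seen and are given with no test.

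**Figure D4:**
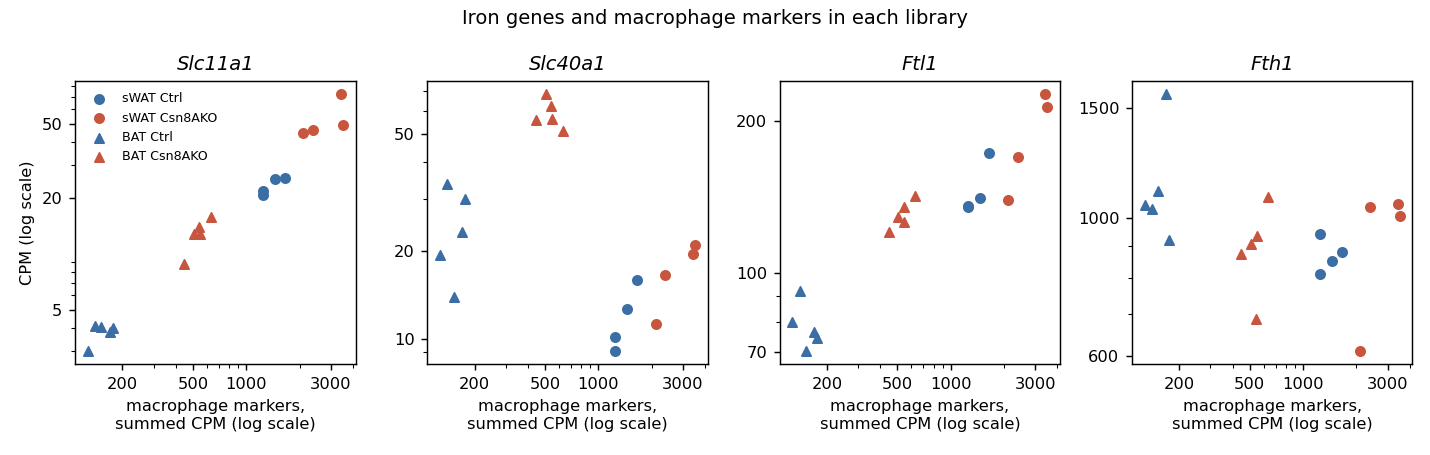
Level of Slc11a1, Slc40a1, Ftl1 and Fth1 in each of the 18 libraries (CPM, vertical) against the summed CPM of 14 macrophage markers (horizontal), both on log axes, with sWAT as circles, BAT as triangles, Ctrl in blue and Csn8AKO in red. CPM uses the TMM factors of each tissue, so the tissues are not on 1 common scale. In each tissue the Csn8AKO libraries lie to the right of the Ctrl libraries, and for Slc11a1 they also lie above them.

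The adipocyte sum (10 markers) was 18630.0 to 24585 CPM in Ctrl and 6482 to 15471 CPM in Csn8AKO sWAT (exact permutation p = 0.0286, adjusted 0.133), with 3 of 10 markers called lower. Per 100 CPM of adipocyte markers, Steap4 took 1.97 to 3.05 CPM in Ctrl and 1.93 to 3.35 CPM in Csn8AKO sWAT, which overlapped, and Trf took 7.63 to 8.25 and 9.03 to 12.0 CPM, which did not. This sum weighs most on Cfd (log2 fold change -1.46) and Fabp4 (-0.49), the most abundant of its markers in sWAT. All 10 markers had a negative log2 fold change there (median -0.62), beside -0.54 for Trf, so the ratio does not show more Trf per adipocyte. In BAT the adipocyte sum was 11398 to 13814 CPM in Ctrl and 12241 to 14326 CPM in Csn8AKO libraries (exact permutation p = 0.556). Of its 10 markers, 1 was called higher (Retn, 3.19, adjusted p = 5.78e-05) and 1 lower (Lipe, -0.38, adjusted p = 0.0221). Per 100 CPM of this sum, Trf took 0.120 to 0.332 CPM in Ctrl and 0.520 to 1.39 CPM in Csn8AKO BAT, without overlap. The part of these cells in the changes of the members was not tested.

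Red cells carry much of the iron of a tissue and are rich in Tfrc while they mature. The erythroid sum of 9 genes was 516 to 1338 CPM in Ctrl and 450.4 to 713 CPM in Csn8AKO BAT (exact permutation p = 0.349). Most of it was globin (a mean of 265 CPM for Hbb-bs in Ctrl). The erythroid markers Klf1 and Epb42 stayed at or below 0.498 CPM in every BAT library, while Alas2 had a mean log2 CPM of 4.22 in BAT. Of 8 erythroid markers tested in BAT, 7 had a negative log2 fold change (median -0.48 over the 8), and 0 were called. The part of red cells in the change of Tfrc was not tested. Markers of dividing cells, which take up iron through Tfrc, summed to 10.0 to 25.4 CPM in Ctrl and 23.6 to 64.9 CPM in Csn8AKO BAT (6 of 8 called, all higher, exact permutation p = 0.0159, adjusted 0.0444). That p rose to between 0.0635 and 0.0873 without Ctrl 2, 3, 4 or 5, and the part of dividing cells in the change of Tfrc was not tested. Fibroblast markers rose in BAT as well (7 of 7 called, exact permutation p = 0.00794, adjusted 0.0278, sums of 499.9 to 816 and 1143 to 2261 CPM), and their part in the rise of Trf, Ftl1 and Slc40a1 was not tested.

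The other genes of iron handling were followed in a list of 43. In sWAT 39 of these passed the filter, and 2 were called higher and 2 lower (10.3% of those tested, beside 5.31% of all genes), with a median log2 fold change of -0.01. Hmox1, which frees iron from heme, rose from 36.6 ± 6.51 CPM to 95.5 ± 11.4 CPM (SD, n = 4, log2 fold change 1.38, SE 0.16, adjusted p = 0.00222), and Fbxl5, the iron sensor that marks Ireb2 for degradation, rose as well (0.80, adjusted p = 0.0178). Heph, a ferroxidase that works with ferroportin, fell (-1.14, adjusted p = 0.0126), as did Alas1, the first enzyme of heme synthesis (-1.01, adjusted p = 0.0204). The iron regulatory proteins Aco1 (-0.66, adjusted p = 0.113) and Ireb2 (0.14, adjusted p = 0.604) did not pass, although Aco1 was called lower with voom (adjusted p = 0.0329), in 1 fit of all 4 groups (0.0207) and without the pair rich in T and B cell markers (0.0218). Neither did Slc11a2, the iron importer DMT1 (-0.20, adjusted p = 0.51), or Cp, the ferroxidase ceruloplasmin (0.05, adjusted p = 0.917).

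Of 42 other ferroptosis genes, all tested in sWAT, 1 was called higher and 3 lower (9.52%), with a median of -0.07. Sat1, an enzyme of polyamine breakdown, rose (0.78, adjusted p = 0.0193). Slc1a5, a glutamine transporter, fell from 1531 ± 233 CPM to 578 ± 183 CPM (-1.41, adjusted p = 0.0136), as did Por, the reductase of cytochromes P450 (-1.22, adjusted p = 0.0193), and Prnp, the prion protein (-0.85, adjusted p = 0.0434). Gpx4, the main enzyme that removes lipid peroxides, did not pass (-0.39, adjusted p = 0.496), and neither did the cystine importer Slc7a11 (0.50, adjusted p = 0.806), Lpcat3 (-0.04, adjusted p = 0.941) or Nfe2l2 (0.06, adjusted p = 0.89). Among the 8 wider genes called in sWAT, Hmox1 passed without each library in turn (adjusted p at most 0.0139) and the others did not. Heph was lost without Csn8AKO 3 (0.0576), Slc1a5 without Csn8AKO 1 or 3 (0.0505 and 0.0582), Fbxl5 without Ctrl 2, 3 or 4 (0.0508 to 0.071), and Sat1 without Ctrl 2 or 3 or Csn8AKO 3 (0.0707 to 0.0725). With library size alone Fbxl5 (0.441), Sat1 (0.45) and Prnp (0.132) were lost, the last also with RLE factors (0.0505). Leaving out the ribosomal RNA pair, Csn8AKO 3 and 4, set Csn8AKO 1 and 2 alone against all Ctrl libraries. In that smaller fit Fbxl5 (0.79, adjusted p = 0.0916), Heph (-1.25, adjusted p = 0.0651), Alas1 (-1.14, adjusted p = 0.0872) and Prnp (-0.92, adjusted p = 0.167) were lost. Alas1 was lost without Ctrl 2, 3 or 4 or Csn8AKO 3 (0.0639 to 0.079), Por without those or Csn8AKO 1 (0.0576 to 0.065), and Prnp without any library but Ctrl 1 and Csn8AKO 2 (0.0604 to 0.133). With single libraries left out, log2 fold changes kept their sign, at -1.28 to -0.99 for Heph, -1.64 to -1.25 for Slc1a5 and 0.70 to 0.90 for Fbxl5. They were 0.68 to 0.88 for Sat1, -1.12 to -0.87 for Alas1, -1.35 to -1.05 for Por and -0.96 to -0.70 for Prnp. The iron list gave 2 calls in place of 4 without Ctrl 2, 3 or 4 or Csn8AKO 3, and 7 without Csn8AKO 2. The ferroptosis list gave 1 without Ctrl 2 or 3 or Csn8AKO 1, 2 without Ctrl 4, and 0 without Csn8AKO 3, where 10 of its genes had an unadjusted p under 0.05.

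In BAT, 39 of the 43 iron genes were tested, and 8 were called higher and 7 lower (38.5%, beside 31.9% of all genes), with a median of 0.01. Those named here are the 5 with the smallest adjusted p in each direction. Hmox1 went from 11.5 ± 2.33 CPM to 51.5 ± 17.9 CPM (SD, n = 5, log2 fold change 2.16, SE 0.25, adjusted p = 9.81e-05), Hp, haptoglobin, rose (1.02, adjusted p = 4.77e-05), and Hpx, hemopexin, rose from a level under 1 CPM (1.48, adjusted p = 0.00428). The ferroxidase Cp rose from 19.1 ± 2.75 CPM to 47.9 ± 12.2 CPM (1.32, adjusted p = 6.66e-05), and Flvcr2 rose (1.41, adjusted p = 0.000224).

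Among those lower in BAT were both biliverdin reductases, Blvrb (-0.75, adjusted p = 1.41e-05) and Blvra (-0.74, adjusted p = 0.00409), and Fech, the last enzyme of heme synthesis (-0.39, adjusted p = 0.00308). The importers Slc11a2 (-0.46, adjusted p = 0.00111) and Slc39a8 (-0.65, adjusted p = 0.0146) were lower too. The call of Slc39a8 was lost with library size alone (adjusted p = 0.0774) and in 1 fit of all 4 groups (0.0669), as was that of Hpx in the latter (0.061). Ireb2 did not pass (0.11, adjusted p = 0.343). Aco1 was called lower (-0.27, adjusted p = 0.0433), but the call was lost without Ctrl 1, 2, 3 or 4 or Csn8AKO 3, 4 or 5 (0.0615 to 0.119), without the muscle pair (0.0591), with library size alone (0.334) and in 1 fit of all 4 groups (0.197). The hepcidin gene Hamp was not tested in either tissue because its counts were too low.

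Of the ferroptosis list 40 of 42 genes were tested in BAT, 11 were called higher and 12 lower (57.5%, beside 31.9%), with a median of 0.01. Fads2 and Fads1, desaturases that make polyunsaturated fatty acids, rose (1.17, adjusted p = 8.85e-06, and 1.54, adjusted p = 7.14e-05), as did Lpcat3, which puts such acids into phospholipids (0.44, adjusted p = 0.00281). Both chains of the cystine importer rose, Slc3a2 from 66.6 ± 23.7 CPM to 173 ± 36.9 CPM (1.37, adjusted p = 0.00164) and Slc7a11 from a level under 1 CPM (2.25, adjusted p = 0.00072). Among the genes called lower were Gpx4, from 840.0 ± 107 CPM to 622 ± 60.4 CPM (-0.43, adjusted p = 0.00839), Coq2 of ubiquinone synthesis (-0.60, adjusted p = 0.000554) and the mitochondrial Dhodh (-0.43, adjusted p = 0.000809). Bach1 (-0.36, adjusted p = 0.000966) and Keap1 (-0.42, adjusted p = 0.00158), which restrain the antioxidant program, were lower as well, as was Hmgb1 (-0.37, adjusted p = 0.00477). The call of Gpx4 was lost in 1 fit of all 4 groups (adjusted p = 0.116), and those of Dhodh (0.0678), Bach1 (0.114), Keap1 (0.107) and Hmgb1 (0.0977) were lost with library size alone. Nfe2l2, the factor Keap1 holds back, did not pass (0.00, adjusted p = 0.989). In the fit of both tissues, 3 of 41 iron genes tested (7.32%) and 2 of 42 ferroptosis genes (4.76%) had a change that differed between BAT and sWAT, beside 2.36% of all genes. The difference was positive for Fads1 (1.99, adjusted p = 0.0073) and Cp (1.25, adjusted p = 0.0154) and negative for Blvra (-1.27, adjusted p = 0.00844), Fbxl5 (-0.77, adjusted p = 0.0266) and Bach1 (-0.69, adjusted p = 0.0191).

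**Figure D5:**
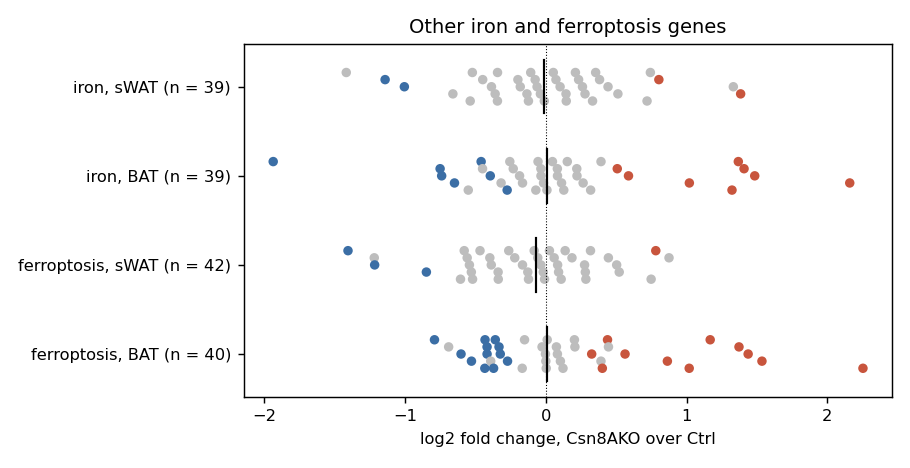
Log2 fold change of Csn8AKO over Ctrl for the other iron genes (39 tested in each tissue) and ferroptosis genes (42 tested in sWAT, 40 in BAT). Each point is a gene, red if called higher, blue if called lower and grey if not called, the vertical place within a row has no meaning, and black lines mark the medians. Few points are colored in sWAT and many in BAT, on both sides of 0.

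The genes most like a member were sought by Pearson's r of log2 CPM over the 18 libraries. The mean of each group was first taken away. This r therefore describes how genes vary together between libraries within a group, and not the genotype. What makes such libraries differ (depth, cell makeup or other) was not tested. Nearest to Trf were Ctdspl (r = 0.907), Tshr (0.898) and Amotl1 (0.892), and to Steap4 Gbp7 (r = 0.905), Igf1 (0.878) and Hcar1 (0.877). Fth1 went with Clta (r = 0.926), Psmd8 (0.916) and Rhoa (0.898), Ftl1 with Mfsd1 (r = 0.899), Bbs7 (0.896) and Lpar3 (0.891), and Ncoa4 with Aamp (r = 0.916), Sgcb (0.913) and Dnajc13 (0.912). The nearest genes were Gatm (r = 0.906), Myof (0.903) and C1rb (0.895) for Slc11a1 and Pcdhga3 (r = 0.805), Rorb (0.804) and Mtus2 (0.798) for Slc40a1, the member with the lowest values. Acsl4 was closest to Gpr137c (r = 0.886), Nvl (0.842) and Agfg1 (0.835), and Aifm2 to Kif1c (r = 0.968), Mfn2 (0.964) and Ppara (0.962), the highest values found.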

How the data were processed

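Total RNA of 18 mouse libraries, depleted of ribosomal RNA, was sequenced with paired reads. Per the labels the submitters' processing notes name STAR 2.7.9a, and by the study's methods the authors counted reads per gene on an Ensembl annotation with featureCounts, with no strand setting given. The deposited files hold raw counts, and CPM, FPKM and TPM columns of the authors that were checked but not used. Genes were tested in R 4.3.3 with edgeR 4.0.16 (quasi-likelihood, robust, TMM factors, low genes removed by filterByExpr at 10 counts and 15 in total), as Csn8AKO over Ctrl within each tissue, and in 1 fit of all groups for differences between tissues. P-values were adjusted by Benjamini-Hochberg over all genes tested and called under 0.05. Sums of marker genes and other library measures, 14 per tissue, went into an exact two-sided permutation test per tissue. Each library is 1 mouse.

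Library totals ran from 15835721 to 23109603 reads in sWAT and from 26658593 to 66719937 in BAT. In BAT they were 44065520 to 66719937 in Ctrl (median 56377966) and 26658593 to 65359211 in Csn8AKO libraries (median 30099221). The text names all 10 genes, up to 5 genes per direction with the smallest adjusted p from each wider list and tissue, a fixed set of landmark genes (Hmox1, Slc11a2, Aco1, Ireb2, Cp, Hamp, Gpx4, Slc7a11, Lpcat3, Nfe2l2), Cops8, marker genes, and the 3 genes most like each of the 10, apart from those of Tfrc, which are not reported here. The 10 genes and all lists were chosen with earlier results of these data known. Alternatives were RLE size factors, library size alone, other filters, DESeq2 1.42.0, limma 3.58.1 (voom with quality weights), removal of ribosomal RNA genes, 1 fit of all 4 groups, a replicate block, ferritin pseudogene counts added, and each library left out. Leaving out pairs of libraries that stood apart was chosen after seeing the data. The test code was tested on simulated data.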

Additional observations from a re-analysis of the deposited data

Results flagged for a closer look

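Of the 112 groups of 4 or 5 libraries examined (40 for the 10 genes, 72 for the library measures), 15 held a library far from the rest of its group by Dixon's test, 6 of them among the 10 genes. Chance alone gives about 1 in 20 if the values are independent and normally distributed. These groups share libraries and genes, so the count does not show an excess over chance.

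In sWAT, Tfrc stood at 51.9 CPM in Csn8AKO 1, against 18.2 to 22.6 CPM in the other libraries of that group. Fth1 was 610.5 CPM in Csn8AKO 2, against 1006 to 1051 CPM, and Slc11a1 was 72.5 CPM in Csn8AKO 3, against 44.7 to 49.1 CPM. Ftl1 was 173 CPM in Ctrl 4, against 135 to 141 CPM. In BAT, Fth1 was 1580.1 CPM in Ctrl 1, against 922 to 1104 CPM, and Slc11a1 was 2.98 CPM in Ctrl 3, against 3.77 to 4.07 CPM. Ftl1 reached 18.4 reads per 100 reads of Fth1 in BAT Csn8AKO 1, against 13.2 to 14.4 in the others.

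Among the marker sums in sWAT, adipocyte markers were lowest in Ctrl 1 (18630.0 CPM, the others 23612 to 24585 CPM), T cell markers were high in Ctrl 1 (282 CPM) and in Csn8AKO 2 (367 CPM), and Csn8AKO 2 was also high in B cell markers (852 CPM) and neutrophil markers (29.5 CPM). Skeletal muscle markers reached 2857 CPM in sWAT Ctrl 3. In BAT, B cell markers reached 23.6 CPM in Csn8AKO 5, and ribosomal RNA took 15.1% of the reads of Csn8AKO 2.

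The change of Trf differed between the tissues by 2.97 on the log2 scale, by the test of the difference itself (edgeR, adjusted p = 0.000493). All 5 Csn8AKO libraries of BAT were above the Ctrl mean and all 4 of sWAT were below it.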

How the results depend on the processing

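The 5 calls in BAT among the 10 genes numbered 4 to 6 under every alternative, and the 8 between Ctrl tissues 7 or 8. In sWAT the 2 calls became 1 with RLE size factors, with the replicate block and without the pair richest in ribosomal RNA (Csn8AKO 3 and 4), and 0 with library size alone (edgeR, 3 at an unadjusted p under 0.05). Without that pair the fit held Csn8AKO 1 and 2 alone of that group. The calls were 1 to 2 with single libraries left out. The interaction gave 2 in place of 1 with DESeq2. The 4 calls of the wider iron list in sWAT became 8 with voom, 9 in 1 fit of all 4 groups, 2 with the replicate block, 7 without the pair rich in T and B cell markers, 2 without the ribosomal RNA pair, and 2 to 7 with single libraries left out. The 4 of the ferroptosis list became 7 with DESeq2, 8 with voom, 7 in 1 fit of all 4 groups, 0 with the replicate block (edgeR, 9 at an unadjusted p under 0.05), 7 without the T and B cell pair, and 0 to 5 with single libraries left out. In BAT the 23 ferroptosis calls became 14 with library size alone. The cause of these shifts was not tested.

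Over all genes in sWAT, 1000 calls became 434 with library size alone, 1946 with DESeq2, 2129 with voom, 2463 in 1 fit of all 4 groups, 299 with the replicate block, 1820 without the T and B cell pair, 382 without the ribosomal RNA pair, and 326 to 1477 with single libraries left out. The 532 calls of the interaction became 1092 with DESeq2 and 914 with voom. With library size alone the share of calls that were higher went from 43.4% to 24.4% in sWAT, from 50.3% to 66.7% in BAT, from 68.0% to 92.7% for the interaction and from 50.2% to 33.7% between Ctrl tissues, and the median of all genes moved by 0.13 in BAT, 0.22 for the interaction and -0.24 between Ctrl tissues on the log2 scale.

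Replicate numbers did not pair the samples: the correlation of deviations between libraries of the same number was -0.13, -0.39, 0.22 and -0.11 in sWAT, and between -0.10 and 0.10 in BAT. Among the 10 genes the replicate block ended the call of Steap4 in sWAT (adjusted p = 0.107) and no other. Among the named wider genes it ended those of Fbxl5 (0.0588), Alas1 (0.0823), Sat1 (0.0913), Slc1a5 (0.0643), Por (0.0722) and Prnp (0.115) in sWAT and of Aco1 (0.0576) in BAT.

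Genes that did not pass the test changed sign as follows, on the log2 scale. With library size alone, sWAT Fth1 was -0.050, Ncoa4 -0.019, Cp -0.077 and Nfe2l2 -0.042, and Ncoa4 between Ctrl tissues was -0.031. With no filter, Acsl4 was -0.028 in sWAT and 0.039 between Ctrl tissues, and BAT Nfe2l2 was -0.016. With voom, sWAT Tfrc was -0.056, Acsl4 -0.12 and Lpcat3 0.14, and BAT Nfe2l2 was -0.015. In 1 fit of all 4 groups, sWAT Acsl4 was -0.011 and BAT Nfe2l2 -0.018, and with the replicate block sWAT Acsl4 was -0.019 and Lpcat3 0.0070. Without the T and B cell pair sWAT Acsl4 was -0.12. Without the ribosomal RNA pair sWAT Fth1 was -0.13, Ncoa4 -0.032, Cp -0.18 and Nfe2l2 -0.099. Without the muscle pair BAT Steap4 was -0.28 and Nfe2l2 -0.0084.

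With single libraries left out, sWAT ranges that crossed 0 were -0.35 to 0.28 for Tfrc, -0.12 to 0.083 for Acsl4, -0.071 to 0.19 for Cp, -0.038 to 0.18 for Nfe2l2, -0.13 to 0.19 for Lpcat3 and -0.62 to 1.66 for Slc7a11. In BAT they were -0.13 to 0.19 for Steap4 and -0.078 to 0.067 for Nfe2l2, for the interaction -0.010 to 0.20 for Ncoa4, and between Ctrl tissues -0.085 to 0.0064 for Acsl4. Differences of Csn8AKO minus Ctrl in library measures crossed 0 for sWAT T cell markers (-60.5 to 95.2 CPM), sWAT muscle markers (-813 to 196 CPM), the sWAT library total (-1639430.0 to 1145680.0 reads) and the BAT ribosomal RNA share (-1.28 to 2.93 percentage points). Depth was lower in sWAT than in BAT, and genes at a few CPM are the least precisely measured.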
